A study of Caenorhabditis elegans with 2 samples.

Results

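The genes examined were the 129 nuclear genes that Ensembl annotates as small nuclear RNA (snRNA) genes of Caenorhabditis elegans, out of 46890 nuclear genes of all kinds. They were chosen by biotype alone, and the spliced-leader genes (sls-) carry the same biotype. All 129 had a RefSeq entry with the same WormBase ID and coordinates. One of them, mir-1831, is a 22-base entry that lies inside sup-39 and bears a microRNA symbol, so the label does not describe it well. The assay was chromatin immunoprecipitation with sequencing (ChIP-seq) of eGFP-tagged PEB-1, a FLYWCH-type zinc-finger protein, in whole L2 larvae of mixed sex and unstated age. The strain was OP86, in which every animal carries the unc-119(ed3) III mutation and the integrated transgene wgIs86, and the expression pattern and copy number of the transgene were not stated. There was 1 group of 2 biological replicates and no comparison group, and a possible control library named in the labels was not analysed here. No marker check applies, because whole animals were used and DNA was measured.

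Small nuclear RNAs assemble with Sm or LSm proteins into ribonucleoproteins, and the spliceosomal ones recognise and join the splice sites of pre-mRNAs. In nematodes the spliced-leader RNAs are also small nuclear ribonucleoproteins, and they donate the leader at their own 5′ end to other transcripts by trans-splicing, with SL1 placed mainly on the first or only gene of a unit and SL2 mainly on downstream genes of operons. Transcription of snRNA genes depends on a proximal sequence element upstream of the start that the SNAPc complex recognises.

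The pooled list and the list of each replicate held 30000 peaks each, on the build ce11 (WBcel235). Peaks were ranked by their deposited height, with rank 1 the highest, and the authors' thresholded list was made of the 160 highest pooled peaks. Heights ran from 9.90 to 202 in the pooled list, from 5.63 to 154 in replicate 1 and from 5.17 to 54.2 in replicate 2, on an unstated scale, so they were compared only within a list. The number of reads behind a peak is unknown. The relaxed lists hold background as well as peaks, and a low rank is therefore a weak statement about a gene. A gene was assigned its best-ranked peak whose summit fell between 1000 bp before and 200 bp after its start.

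The 2 snRNA genes within the 160 highest pooled peaks were C52E4.8 and the spliced-leader gene sls-2.2. They are 1.55% of the snRNA genes (exact binomial 95% interval 0.188 to 5.49%). Across all 44762 nuclear genes that are not pseudogenes, 0.413% had a peak that high. Among the other non-coding genes without piRNA genes it was 1.16%. By class it was 3.45% of microRNA genes, 2.89% of small nucleolar RNA genes, 1.09% of the class ncRNA and 0.490% of tRNA genes. A further 4 snRNA genes ranked within 1000, which gave 6 of 129, beside 1.90% of all genes. They were sup-6, sls-2.1, F38E11.10 and sls-2.4. With 38 of 129 genes (29.5%, exact binomial 95% interval 21.8 to 38.1%) having any pooled peak, beside 33.3% of all genes, the whole relaxed list held snRNA genes at a share close to the background. Intervals cover counting error only, and neighbouring copies that share a peak are not independent: the 38 genes had 35 distinct peaks. No test was made, since there was no comparison group.

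The sequence at the highest snRNA peak, that of C52E4.8, is shown because the gene ranked within 1000 in each replicate and the stretch holds words of the PEB-1 consensus. It is 201 bases centred on the pooled summit, on the strand of the gene, from RefSeq WBcel235, and capitals mark a core word (defined with the counts of words) or its reverse complement.
C52E4.8, V:11980146-11980346, plus strand: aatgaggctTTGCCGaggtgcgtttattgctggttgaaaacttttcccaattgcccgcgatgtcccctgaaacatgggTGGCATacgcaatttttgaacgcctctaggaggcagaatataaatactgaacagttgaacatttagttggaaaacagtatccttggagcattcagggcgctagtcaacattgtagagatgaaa

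C52E4.8 (V:11980118-11980261, plus strand) is a 144-base gene with no protein-coding gene over it. Its best peak had rank 37 in the pooled list, rank 52 in replicate 1 and rank 50 in replicate 2, with heights of 58.4, 38.8 and 18.1 in those lists. It was the highest-ranked snRNA gene in all 3 lists. The pooled summit lay 128 bp after the start, inside the gene, and the replicate summits lay 134 and 38 bp after it. The same peak lay 523 bp upstream of the start of snr-4, a gene for an Sm protein on the opposite strand, so the peak falls in the windows of an snRNA gene and of a gene for a protein that binds such RNAs. The C52E4.8 start was the nearest gene start to the summit.

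sls-2.2 (II:5543598-5543707, plus strand) is an SL2 spliced-leader RNA gene. Its peak had rank 65 in the pooled list, 110 in replicate 1 and 307 in replicate 2, with heights of 45.7, 28.9 and 14.2, and its pooled summit lay 2 bp after the start. sls-2.1 (II:5844865-5844974, plus strand) had pooled rank 208 (height 32.8) and rank 113 in replicate 1 (height 28.8), with both summits 87 bp upstream, and no peak in replicate 2. sls-2.4 (I:4172206-4172315, plus strand) had pooled rank 575 (height 25.2) and rank 275 in replicate 1 (height 21.9), and also no peak in replicate 2. Of these 3 spliced-leader genes, sls-2.2 alone was found in both replicates, and the pooled ranks of the other 2 stand on replicate 1.

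sup-6 (II:12944803-12944967, minus strand) was defined by suppressor mutations and encodes a U1 small nuclear RNA, the RNA that pairs with 5′ splice sites, and it lies in an intron of F58G1.7 on the same strand. It ranked 195 in the pooled list, 478 in replicate 1 and 2183 in replicate 2, with heights of 33.4, 18.5 and 10.8, and its pooled summit lay 168 bp after the start, just past the end of the gene. F38E11.10 (IV:9444642-9444763, plus strand) ranked 269, 674 and 225 in the same order, with heights of 30.7, 16.7 and 14.8 and its pooled summit 18 bp after the start. It was one of the 3 genes that ranked within 1000 in both replicates, with C52E4.8 and sls-2.2. These 3 are 2.33% of the snRNA genes, beside 0.393% of all genes and 1.00% of the other non-coding genes without piRNA genes. Among small nucleolar RNA genes the share was higher, with 10 of 346 (2.89%). The genes on either side of the threshold of 160 were sls-2.2 at rank 65 and sup-6 at rank 195.

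Beyond pooled rank 1000, the genes named here had at least 1 replicate rank far from the pooled rank. sup-39 and mir-1831 shared a peak of pooled rank 1156 that ranked 3735 in replicate 1 and 7684 in replicate 2, and the nearest start to its summit was that of another gene, C15F1.14. B0213.23 ranked 1436 in the pooled list but 9573 and 4888 in the replicates. F54D8.7 ranked 1542, and its replicate peaks did not overlap each other. sls-2.16, sls-2.5 and sls-2.18, which lie in introns of the glutamate receptor gene glr-2, shared a single peak of pooled rank 1748 whose nearest start was sls-2.16. That peak ranked 7262 in replicate 1 and 1198 in replicate 2. smy-8, a gene of the SmY class of nematode small nuclear RNAs, ranked 2202 in the pooled list and 14735 and 13479 in the replicates. A case in the other direction was sls-2.8, with rank 434 in replicate 1, no peak in replicate 2 and pooled rank 7493.

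**Figure D1:**
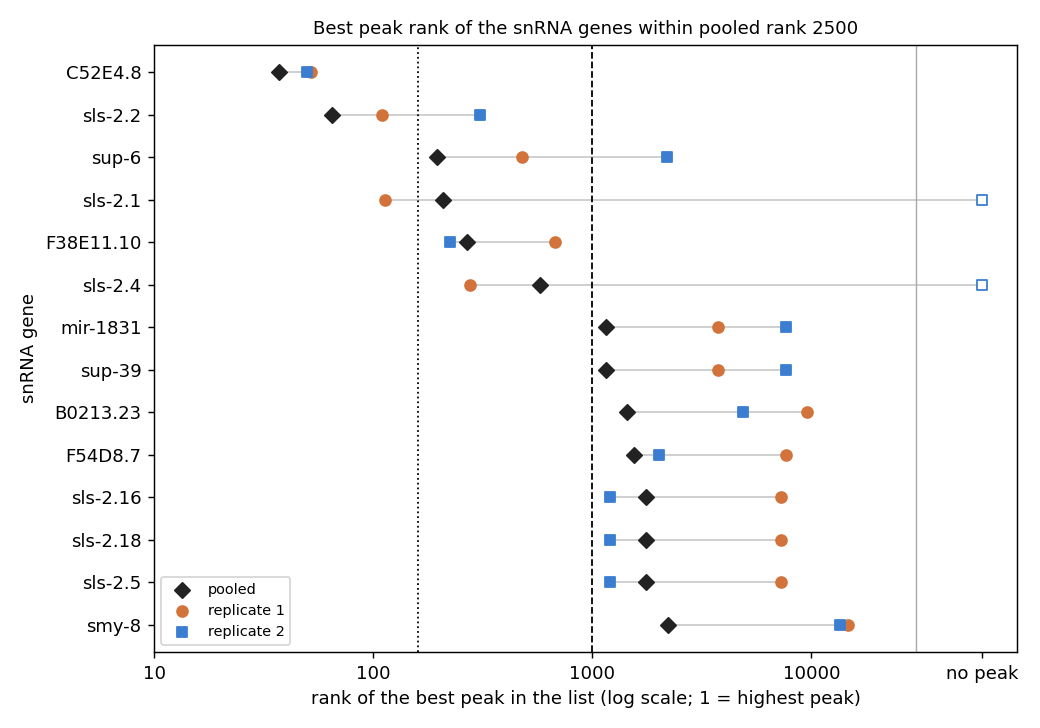
Rank of the best peak (log scale, 1 is the highest) in the pooled list (diamonds), replicate 1 (circles) and replicate 2 (squares) for the 14 snRNA genes within pooled rank 2500. Open symbols at the right are lists without a peak, the dotted line is rank 160 and the dashed line rank 1000. C52E4.8 is left of the dotted line in all 3 lists, and sls-2.1 and sls-2.4 have no peak in replicate 2.

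In replicate 1, 40 snRNA genes (31.0%) had a peak, beside 33.4% of all genes, and 7 (5.43%) ranked within 1000, beside 1.99%. In replicate 2, 35 (27.1%) had a peak, beside 33.2% of all genes, and 3 (2.33%) ranked within 1000, beside 1.40%. A peak was present in both replicates for 21 genes, in replicate 1 alone for 19 and in replicate 2 alone for 14. For 15 of the 21, the peaks of the replicates overlapped by at least 1 bp. Of the 14 genes within pooled rank 2500, 12 had a peak in both replicates, and of the 24 below that rank, 7 did. The 14 genes had 11 distinct pooled peaks. Genes that share a peak, sup-39 with mir-1831 and sls-2.16 with sls-2.5 and sls-2.18, are each counted in the 12, the 15 and the 21. No list held a peak for 74 of the 129 genes. The shares of all genes with any peak in both replicates, with overlapping replicate peaks or with no peak in any list were not computed.

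Within rank 1000 the share of snRNA genes was close to that of the other non-coding genes without piRNA genes, and over the whole list it was lower. The share within pooled rank 1000 was 4.65% (interval 1.73 to 9.85%), beside 4.65% of the 9297 other non-coding genes without piRNA genes and 1.62% of protein-coding genes. Small nucleolar RNA (snoRNA) genes, which guide RNA modification, had the highest share at that cutoff, with 38 of 346 genes (interval 7.89 to 14.8%), and the intervals of the 2 classes overlapped. MicroRNA genes had 17 of 261 (6.51%), tRNA genes 32 of 612 (5.23%) and the class ncRNA 341 of 7764 (4.39%), each inside the snRNA interval. Within rank 2500 the snRNA share was 10.9% (14 genes from 11 peaks), beside 7.87% of the other non-coding genes without piRNA genes (732 genes from 505 peaks). Over all 30000 peaks the order changed, with 29.5% of snRNA genes (interval 21.8 to 38.1%) beside 41.4% of the same other genes, 49.7% of snoRNA genes and 47.4% of tRNA genes, all above that interval. Including the 15363 piRNA genes, which lie in dense clusters and reached 0.586% within rank 1000, the other non-coding genes had 2.12% at that cutoff.

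**Figure D2:**
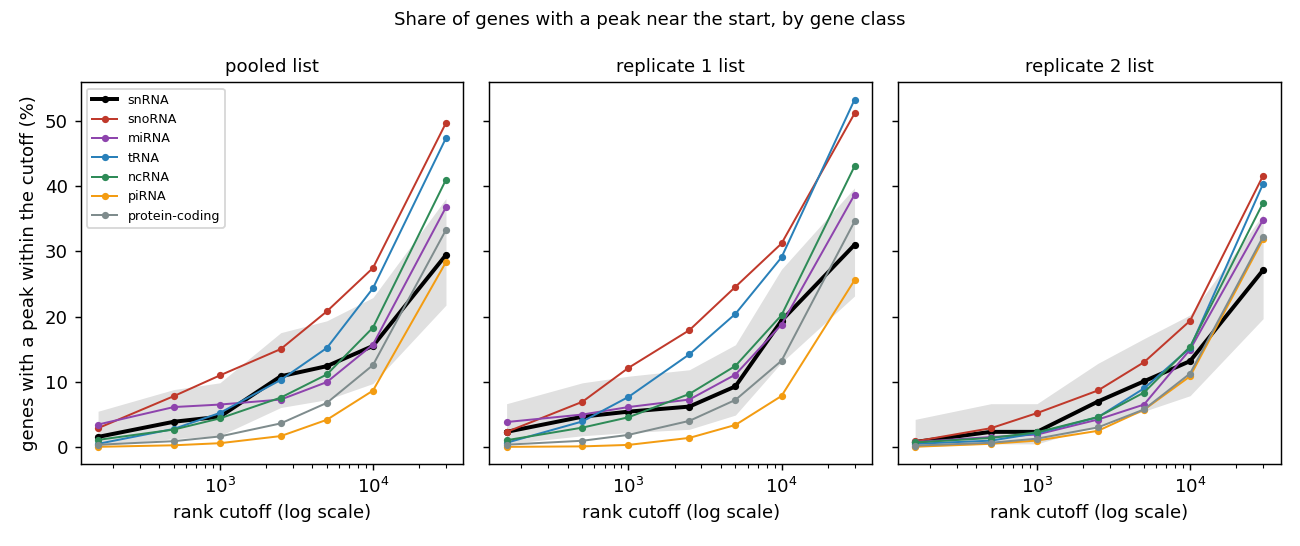
Percentage of genes (vertical axis) with a best peak within each rank cutoff (horizontal axis, log scale) in the pooled, replicate 1 and replicate 2 lists, by Ensembl gene class, with the exact 95% interval of the snRNA genes shaded. The snRNA line (thick) lies near the ncRNA line up to rank 10000 in the pooled list and below it at 30000, where it reaches 29.5%.

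The 6 genes within rank 1000 came from 4 families, and 3 of them were SL2 genes. Families were set by symbol for sls-1, sls-2 and smy, and otherwise by at least 80% sequence identity, named after the best-ranked gene or, for sup-6 and sup-39, by their shared symbol, because the annotation used does not say which spliceosomal RNA a gene encodes. Of the 18 sls-2 genes, 8 had a pooled peak (6 distinct peaks), and 3 ranked within 1000. None of the 12 sls-1 genes had a peak in any list. Taken as 3 counts of the total, an approximation and not the exact interval used elsewhere, 0 of 12 allows up to 25.0% for counting error alone. The 12 genes have only 2 distinct sequences, so they are not independent counts and 25.0% is not a limit for them. Their windows are hardly unique in the genome (median 2.99% of 32-base words). Of the 5 genes of the C52E4.8 family, 4 had a peak, with ranks of 37, 17227, 18884 and 28708. The F38E11.10 family had 6 of 12 genes with a peak, and the sup family had 5 of 13. The largest family, with 24 genes around F54D8.7, had 5 with a peak and none within 1000. The second largest, with 19 genes around F08G2.10, had 2 with a peak, the better at rank 3538. The 10 smy genes had 2 with a peak. Beside these counts, 33.3% of all genes had a pooled peak and 1.90% ranked within 1000. The families are small, and differences from these shares were not tested.

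**Figure D3:**
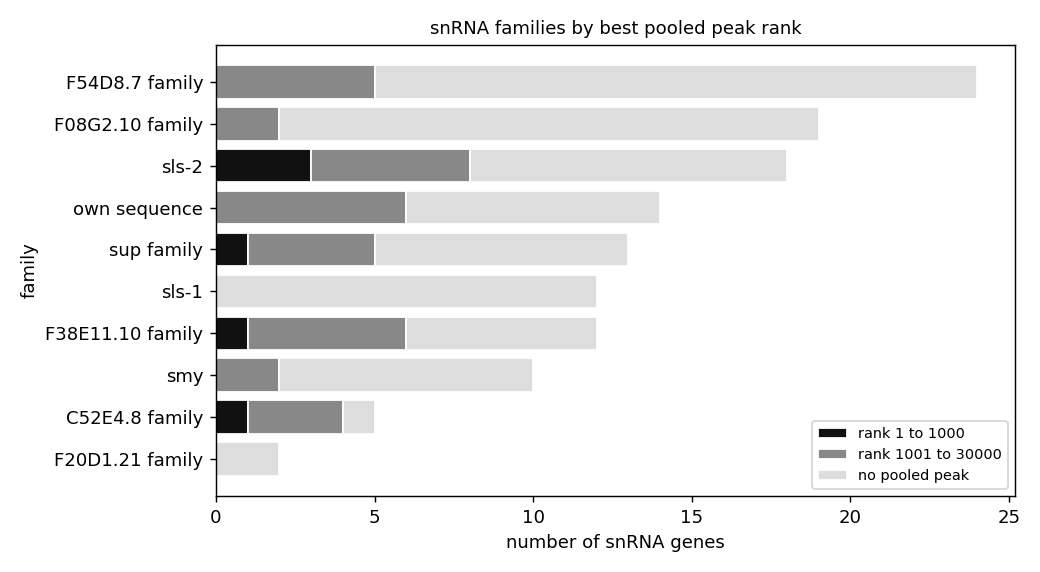
Number of snRNA genes (horizontal axis) in each family (vertical axis), split by whether the best pooled peak ranks within 1000 (black), from 1001 to 30000 (grey) or is missing (light). The bar of sls-2 holds 3 of the 6 genes within rank 1000, and the sls-1 bar holds no gene with a peak.

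Within the sls-2 family, pooled ranks within 1000 were held by genes with the same first 22 bases, but replicate 1 ranks were not. The gene sequences of sls-2.2, sls-2.3 and sls-2.16 are shown to make that visible, from RefSeq WBcel235. Capitals mark the first 22 bases, a fixed length at the end of the gene where the spliced leader lies. The last base of each leader was not determined and may lie beyond base 22.
sls-2.2, II:5543598-5543707, plus strand: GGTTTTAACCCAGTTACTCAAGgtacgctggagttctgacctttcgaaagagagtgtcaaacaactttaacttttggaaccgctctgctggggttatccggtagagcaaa
sls-2.3, II:5544164-5544273, minus strand, the copy without a pooled peak: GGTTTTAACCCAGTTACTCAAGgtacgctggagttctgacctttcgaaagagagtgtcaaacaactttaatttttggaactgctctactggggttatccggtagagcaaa
sls-2.16, III:7141391-7141499, plus strand: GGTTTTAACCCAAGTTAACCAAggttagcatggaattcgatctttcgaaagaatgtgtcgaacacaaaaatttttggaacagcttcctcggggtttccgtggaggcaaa

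The first 22 bases were the same in 4 of the 18 genes, sls-2.1, sls-2.2, sls-2.3 and sls-2.4, and the other 14 genes had 10 other sequences there. In the first group 3 of 4 genes had a pooled peak, all 3 within rank 1000. Among the other 14, 5 genes had a pooled peak, from 3 distinct peaks, and the best ranked 1748. In replicate 1, 3 of the 4 genes and 1 of the other 14, sls-2.8 at rank 434, ranked within 1000. In replicate 2 the 4 genes had 1 peak within rank 1000, that of sls-2.2, and the other 14 had none. These groups were set after the ranks had been seen, so the counts are a description.

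The same 4 genes also share sequence upstream of the start. The 80 bases upstream of 3 of them are shown, with capitals for a run of 15 bases that all 4 hold and that no other gene among the 44762 holds in that stretch. The run was found by comparing these sequences after the ranks had been seen.
sls-2.1 upstream, II:5844785-5844864, plus strand: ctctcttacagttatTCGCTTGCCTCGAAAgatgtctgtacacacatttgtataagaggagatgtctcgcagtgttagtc
sls-2.2 upstream, II:5543518-5543597, plus strand: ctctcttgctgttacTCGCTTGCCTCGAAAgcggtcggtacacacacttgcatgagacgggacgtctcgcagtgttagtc
sls-2.3 upstream, II:5544274-5544353, minus strand: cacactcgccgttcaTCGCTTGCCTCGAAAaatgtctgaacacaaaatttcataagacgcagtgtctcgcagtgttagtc

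sls-2.3 lies beside sls-2.2 in the opposite orientation, with 456 bp between the genes, and its start is 673 bp from the summit of the sls-2.2 peak. It holds the run and the same first 22 bases but had no pooled peak, no peak in replicate 1 and a peak of rank 12412 in replicate 2. Its gene is 97.3% identical to sls-2.2 and its 80 upstream bases are 76.3% identical. Neither the run nor the shared first 22 bases therefore went with a high rank in every copy.

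Other near-identical copies also differed in rank. C52E4.8 is identical over its whole length to T11F9.15, which had no pooled peak, and 99.3% identical to T11F9.16 (rank 18884) and K03B8.10 (rank 28708), while the 80 bases upstream of these copies are 57.5 to 61.3% identical to its own. F38E11.10 is identical to F38E11.11, which ranked 18211, and their upstream sequences are 60.0% identical. sup-6 is 97.6% identical to both sup-39 (rank 1156) and F40G12.13 (rank 8885). In all, 44 of the 129 genes fall in 9 sets of identical copies, and 9 of the 44 (20.5%) had a pooled peak, beside 29 of the 85 genes with a sequence of their own (34.1%). The 44 include all 12 sls-1 genes, which had no peak and lower that share.

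Reads from identical copies cannot be assigned to one of them, and no source used here says how the mapping behind the peaks treated them, beyond signal tracks of unique reads in the accompanying file listing. The share of 32-base words in a gene's window that occur once in the genome was therefore computed as a description, after the ranks had been seen. Its median was 90.2% for snRNA genes and 100% for the other non-coding genes. It was 92.9% for the 38 genes with a pooled peak and 87.4% for the 91 without. With the sls-1 genes left out, it was 89.2% for the 79 remaining genes without a pooled peak. The sls-1 windows had a median of 2.99%, so the lack of peaks there and the repetition of the windows cannot be told apart. The windows of C52E4.8 and F38E11.10 were 85.2% and 91.8% unique, but none of the 32-base words inside either gene was unique, and both pooled summits lay inside the gene. Which copy gave the reads under these 2 summits is therefore uncertain. Inside sls-2.2, 50.6% of the words were unique, inside sls-2.1 and sls-2.3 39.2%, and inside sup-6 53.0%.

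**Figure D4:**
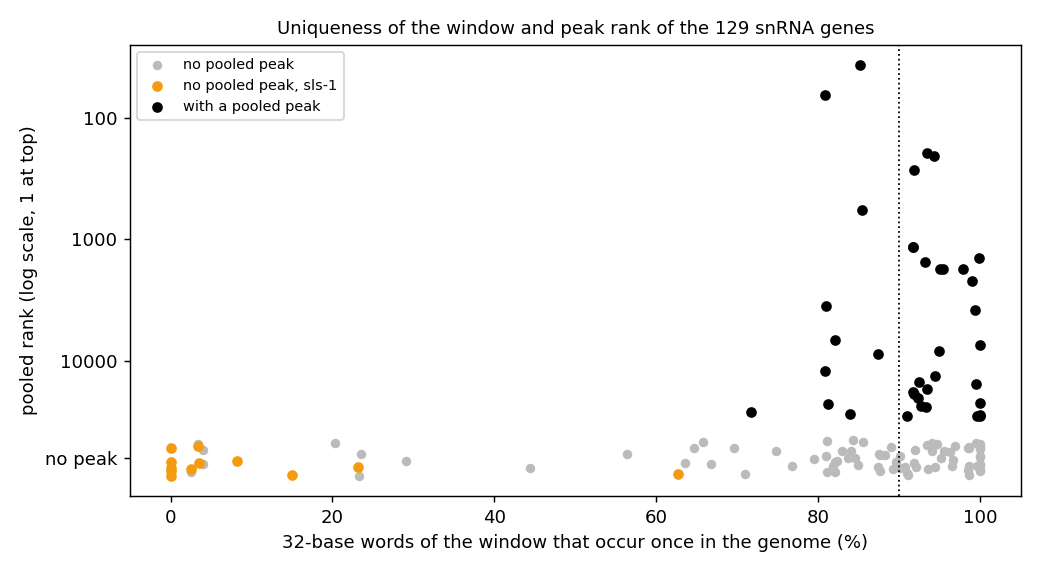
Percentage of 32-base words in each gene's window that occur once in the genome (horizontal axis) and pooled rank (vertical axis, log scale, 1 at the top) of the 129 snRNA genes, with genes without a pooled peak spread in a band at the bottom and sls-1 genes in orange. The dotted line is 90%, and the sls-1 genes lie between 0 and 62.7%.

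Among genes with at least 90% unique windows, 28 of 66 snRNA genes (42.4%) had a pooled peak, beside 43.8% of the other non-coding genes without piRNA genes. Below 90%, the shares were 10 of 63 (15.9%) and 23.5%. Within rank 1000, the shares at 90% or more were 3 of 66 (4.55%) and 5.10%. Below 90% they were 3 of 63 (4.76%) and 1.27%, and the 3 snRNA genes were C52E4.8, sls-2.2 and sls-2.4.

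Most summits of snRNA genes lay within 200 bp of the start, and 13 of 38 lay inside the gene. For all 6 genes within rank 1000 the summit was within 200 bp of the start, beside 78.1% of tRNA genes, 71.1% of snoRNA genes, 66.9% of the other non-coding genes without piRNA genes and 34.3% of protein-coding genes with a peak that high. Over all 38 genes it was 25 (65.8%), beside 57.9%, 50.6%, 46.0% and 36.2% of these classes in the same order. Of the other summits, 21 lay upstream and 4 past the end, and the pooled peak, 356 bp wide, covered at least 1 base of 25 of the genes. The genes are 22 to 187 bases long, shorter than a peak, so a peak on the gene and a peak on its promoter cannot be told apart. The snRNA gene had the nearest start to the summit in 28 of 38 cases. A protein-coding gene overlapped 67 of the 129 genes and 22 of the 38 with a peak. This overlap is that of the snRNA gene, and whether the peak itself lies in an intron or exon was not computed.

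**Figure D5:**
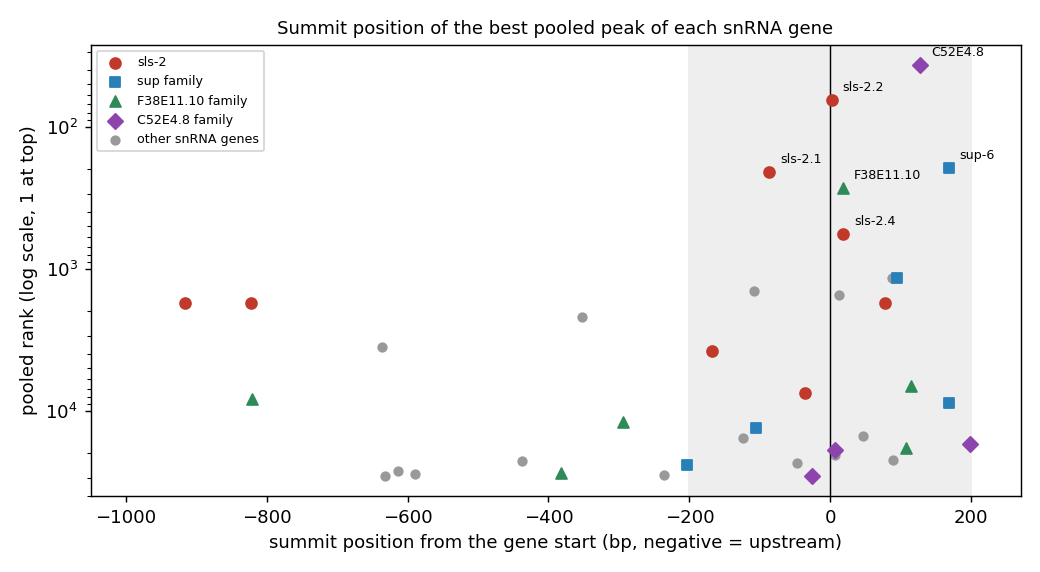
Distance of the pooled summit from the gene start (horizontal axis, bp, negative is upstream) and pooled rank (vertical axis, log scale, 1 at the top) of the 38 snRNA genes with a pooled peak, with families by colour and shape and the grey band marking 200 bp on either side of the start. All 6 genes within rank 1000 lie in the band, and 5 of them at or after the start.

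Many snRNA genes share words in the stretch upstream of the start. The 80 bases upstream of 4 genes are shown because the peak-bearing genes differ in them, with capitals for GAACCCG or AAACCCG and for TGTCGG or TGTCCG, words chosen after the upstream sequences had been compared.
sup-6 upstream, II:12944968-12945047, minus strand: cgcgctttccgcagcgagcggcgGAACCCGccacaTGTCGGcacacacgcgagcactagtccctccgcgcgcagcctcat
sup-39 upstream, II:6968559-6968638, minus strand: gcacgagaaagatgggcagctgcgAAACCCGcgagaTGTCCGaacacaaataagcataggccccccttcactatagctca
sls-2.16 upstream, III:7141311-7141390, plus strand: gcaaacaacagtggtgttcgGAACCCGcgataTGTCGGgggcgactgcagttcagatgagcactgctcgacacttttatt
C52E4.8 upstream, V:11980038-11980117, plus strand: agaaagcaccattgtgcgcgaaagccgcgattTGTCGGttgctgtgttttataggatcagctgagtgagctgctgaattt

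GAACCCG or AAACCCG lay on the strand of the gene, between 80 and 36 bases upstream, in 43 of the 129 genes (33.3%), beside 170 of all 44762 genes (0.380%). In these 43 genes the word began at a median of 59 bases upstream, from 72 to 56. Overlapping gene entries such as sup-39 and mir-1831 count the same word for each gene, so there are fewer distinct words than 43. T27E4.12 and T27E4.22 also overlap on the same strand, and whether they share a word was not checked. TGTCGG or TGTCCG lay between 80 and 26 bases upstream in 49 genes (38.0%), beside 1.15% of all genes. The first pair of words was present in all 12 genes of the F38E11.10 family, in 10 of 18 sls-2 genes, in 8 of 13 sup genes and in 6 of 10 smy genes, and in none of the sls-1 or F08G2.10 families. It was present in 17 of the 38 genes with a pooled peak (44.7%), in 26 of the 91 without (28.6%) and in 2 of the 6 within rank 1000. The 17 include sup-39 and mir-1831, which share 1 word and 1 peak, and sls-2.5, sls-2.16 and sls-2.18, which share 1 peak. With the 12 sls-1 genes left out, the 26 are among 79 genes without a pooled peak. The difference between these shares was not tested. sls-2.1 and sls-2.2 hold neither pair of words, and C52E4.8 holds only the second. In promoters of 250 bases before to 50 after the start, on both strands, the first pair was present in 35.7% of snRNA genes and 3.58% of all genes, and in 12.4% of snoRNA genes.

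Words of the PEB-1 consensus, which was taken from general knowledge of the protein, lay at snRNA peaks in a share close to that of all pooled peaks. The core words searched, on both strands, began with A, G or T and went on with TGCCA or TGCCG. They lay within 100 bp of the summit in 12 of the 35 distinct snRNA peaks (34.3%, interval 19.1 to 52.2%), beside 35.2% of all 30000 pooled peaks. Within rank 2500 it was 4 of 11 peaks, beside 40.4% of pooled peaks of that rank. These were the peaks of C52E4.8, sup-6, F38E11.10 and B0213.23, and the 3 sls-2 peaks within rank 1000 held no core word. GAGAGA, searched on both strands, lay within 100 bp of 3 of the 35 summits (8.57%), beside 13.5%, and within rank 2500 at F38E11.10 alone, 1 of 11 peaks, beside 25.4%. In the 300-base promoters the core words were present in 46.5% of snRNA genes and 38.1% of all genes. A match says only that the letters are present.

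The proteins that work with these RNAs were looked up in the same lists. The list held 47 genes, entered for Sm and LSm proteins, other spliceosomal and spliced-leader ribonucleoproteins, SNAPc, assembly factors, Integrator and splice acceptor factors. Of these, 13 had a pooled peak (27.7%), beside 33.3% of protein-coding genes, and 1 ranked within 1000 (2.13%), beside 1.62% of protein-coding genes. That gene was snr-4, through the peak it shares with C52E4.8, and no peak of the other 6 Sm genes was in the pooled list. The only other of the 47 within rank 2500 was prp-8, a core protein of the spliceosome, at pooled rank 1721, with ranks of 1655 and 1407 in the replicates and a summit at position -412 bp from the start. Of the SNAPc genes, 2 of 7 had a peak, the better at rank 9633. A peak was listed for 2 of 8 LSm genes, 3 of 10 Integrator genes and neither of the splice acceptor genes. Of the 3 genes entered for the spliced-leader ribonucleoprotein, sna-1, sna-2 and sut-2, only sna-2 had a pooled peak (rank 7769). Whether sut-2 belongs to that ribonucleoprotein was not checked. All 3 genes for assembly and cap factors had a peak, the best at rank 17339.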

How the data were processed

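Chromatin immunoprecipitation with sequencing of eGFP-PEB-1 was done in 2 biological replicates of L2 larvae, per the labels, with fragments of 150 to 350 bp. The replicates were called separately and pooled, per the names of the deposited lists. The aligner, peak caller, their versions, the treatment of reads with several matches and the threshold of the irreproducible discovery rate procedure are not given in the sources. Each peak's signal is its height as deposited by the authors. The deposited score in the ninth column broke ties of height. The depth is unknown, so no interval on a height was computed. Peaks on ce11 were used, and the lists on ce10 were left out as the same data on another build.

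Genes and biotypes came from Ensembl release 115 (WBcel235) and symbols and sequence from RefSeq (the same build), matched by WormBase ID. The Ensembl name differed from the RefSeq symbol for 35 snRNA genes. Each gene took its best-ranked peak whose summit fell between 1000 bp before and 200 bp after its start. Families by RNA type had been planned, but the annotation used does not name the types. Genes were instead joined by sequence identity of at least 80% to any 1 member of a family (Biopython 1.88, global alignment over the longer sequence). Word searches, 32-base word counts and distances were computed with Python 3.11.15, numpy 2.4.6, pandas 2.3.3, and exact binomial (Clopper-Pearson) 95% intervals with scipy 1.17.1. The assignment was tested on simulated peaks. There were no tests, because there was 1 group.

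Named genes were all members within pooled rank 1000, those within rank 1000 in both replicates, the ones on either side of rank 160, and partner genes within rank 1000. Other genes named, with ranks beyond 1000 or in families, were chosen after their values were seen. The members and lists were chosen with earlier results of these data known. Of 48 partner genes listed, 47 were found in the annotation. Alternatives tried were other windows, peak overlap in place of the summit, the nearest start alone, each replicate list alone, other cutoffs and other distances for words. A sequence at 1 of the named peaks is not reported here.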

Additional observations from a re-analysis of the deposited data

How the results depend on the processing

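The count of snRNA genes within pooled rank 160 was 2, and it was 1 with the window from 500 bp upstream to 100 bp downstream, which leaves out the C52E4.8 summit at 128 bp, and from 1 to 3 in the list of a single replicate. With the window from 2000 bp upstream to 500 bp downstream it was 3, with smy-1 (rank 104, summit at 472 bp) added. The count within rank 1000 was 6, from 3 to 7 in the list of a single replicate, and from 5 to 8 over the other windows and assignment rules; replicate 2 alone gave the 3 because sls-2.1 and sls-2.4 have no peak there and sup-6 ranks 2183. For the other non-coding genes the count within rank 160 was 113, and it was 75 with the narrow window, 192 with the wide one, 65 with the nearest start alone and from 72 to 110 in single replicates. Within rank 1000 it was 522, and then 305, 844 and 277. The share of snRNA summits with a core word was 34.3% within 100 bp, 14.3% within 50 bp and 68.6% within 200 bp, and the longer stretches hold more words by construction (all pooled peaks: 19.8% and 56.1%). The counts of genes within rank 1000 in both replicates (3) and of overlapping replicate peaks (15) stayed within 1.5 times under the cutoffs and overlaps tried. No paired analysis was possible because there was 1 group. The depth behind the peaks is unknown.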
